A study of Homo sapiens with 27 samples.

Results

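The 33 genes described here are targets and partners of ATF4, the transcription factor of the amino acid and stress response, together with ATF4 itself. They were chosen by symbol from a fixed list, with rows of the same symbol summed, and are 33 of the 36536 symbols or identifiers in the count table. The list holds 6 transcription factors, 6 enzymes of serine synthesis and the mitochondrial folate pathway, 6 other enzymes of amino acid synthesis, 6 amino acid transporters, 3 genes of translation, 4 stress regulators and 2 genes of secreted or surface proteins. All 33 passed the filter on low counts, the lowest being CTH with a mean of 40.9 counts per library.

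When a cell runs short of an amino acid or accumulates unfolded protein, kinases such as GCN2 and PERK phosphorylate the initiation factor eIF2. General translation slows, while the ATF4 messenger RNA is translated better, so ATF4 protein can change with no change in its messenger RNA. ATF4 pairs with other leucine-zipper factors, among them the C/EBP family, on composite sites called C/EBP-ATF response elements. Its targets make, import and charge amino acids, and others limit growth, feed back on eIF2 phosphorylation or promote cell death. Growth factor signalling through mTORC1 is also known to raise ATF4 translation, with the synthesis genes as the targets best known there.

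Polyadenylated RNA was measured in MCF10A cells, a human breast epithelial line that is immortal but forms no tumours. Its growth medium held horse serum, hydrocortisone, cholera toxin, insulin and EGF (20 ng/ml), and the cells of all groups spent 18 h without growth factors before treatment. The groups were untreated cells at 0 h (T0), and cells 24 h after phosphate-buffered saline (PBS) or after epidermal growth factor (EGF), oncostatin M (OSM, an interleukin-6 family cytokine) or transforming growth factor beta (TGFB), each ligand at 10 ng/ml, alone, in each of the 3 pairs and all together. The 9 groups held 3 libraries apiece, which made 27. The labels do not say that libraries of a group came from separate cultures, so p-values measure the spread between these libraries, which may be technical. All comparisons with PBS share the same 3 PBS libraries.

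Library totals ran from 30.1 to 52.9 M counts, with a median of 39.5 M, and replicate libraries correlated at 0.988 to 0.992 on the log2 scale. OSM replicate 3 stood somewhat apart from the other OSM libraries, and results that rest on it are also given without it. The 7 markers of basal mammary epithelium checked, KRT5 and TP63 among them, were present in all 27 libraries, with a summed level of 11290 to 28700 CPM (counts scaled to the size of the library). Of the markers of other cell types, PGR was at 0 in 26 libraries, COL3A1 in 22 and CD3E in 15, and PTPRC did not pass 0.225 CPM. ESR1, PECAM1, VWF and PDGFRB did not pass 3.52 CPM, while DCN (7.42 to 103 CPM) and CD68 (20.2 to 50.4 CPM) were detected and moved with the treatments. The summed level of the 3 fibroblast markers, nearly all of it DCN, was 64.6 to 104 CPM in the 5 groups without EGF and 7.75 to 14.4 CPM in the 4 groups with EGF. That of the 3 leukocyte markers, nearly all of it CD68, was 26.5 to 28.3 CPM in PBS, 20.2 to 23.4 CPM with EGF, 39.6 to 43.0 CPM with OSM, 21.6 to 28.5 CPM with TGFB, 30 to 32.9 CPM with EGF+OSM and 27.5 to 30.6 CPM with EGF+TGFB. It was 24.0 to 25.2 CPM in T0, 45.2 to 50.5 CPM with OSM+TGFB and 44 to 48.7 CPM with all 3 ligands. The summed level of 6 proliferation genes, MKI67 among them, moved with the treatments too. It was 59.1 to 88.5 CPM in PBS and 43.5 to 57.1 CPM in TGFB, 408 to 531 CPM in T0, 235 to 349 CPM in OSM+TGFB and 842 to 1129 CPM in OSM. With EGF it was 1303 to 1516 CPM, with EGF+OSM 1602 to 1824 CPM, with EGF+TGFB 592 to 914 CPM and with all 3 ligands 630.1 to 937 CPM. The part of these markers in the results below was not tested. In RNA of whole cultures, fewer cells of a type and less RNA per cell cannot be told apart.

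Promoters of the genes were searched for the core of the C/EBP-ATF response element, since it is the sequence through which ATF4 acts on several of them. The letters searched were TGATGNAA on either strand (TTNCATCA when read on the other), in RefSeq windows of GRCh38.p14 that run from 250 bases before to 50 bases after an annotated start. Of the 33 genes, 26 had a window. The letters were held by 8 of these 26 genes (30.8%), against 1217 of 27305 genes (4.46%) in the whole table. By window it was 18.6% of 43 against 3.62% of 35116. The 33 genes were listed as targets and partners of ATF4. A higher share than over all genes was therefore likely from the choice alone and is not read as a result. The 30 bases around each match are shown 5′ to 3′ on the gene's strand, with the match in capitals.
ASNS (chr7:97872458-97872487, minus strand): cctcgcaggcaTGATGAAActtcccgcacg
CHAC1 (chr15:40953251-40953280, plus strand): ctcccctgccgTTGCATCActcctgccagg
CEBPG (chr19:33374060-33374089, plus strand): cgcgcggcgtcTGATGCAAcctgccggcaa
JDP2 (chr14:75427995-75428024, plus strand): atagccggggcTGATGCAAcccgtcccgcc
SLC1A5 (chr19:46784893-46784922, minus strand): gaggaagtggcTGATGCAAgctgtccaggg
SLC1A4 (chr2:64989381-64989410, plus strand): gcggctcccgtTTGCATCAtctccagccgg
SLC7A1 (chr13:29595663-29595692, minus strand): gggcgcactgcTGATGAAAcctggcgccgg
SLC3A2 (chr11:62881719-62881748, plus strand): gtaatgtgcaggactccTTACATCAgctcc
The match began 68 bases before the start in ASNS, 209 in CHAC1, 42 in CEBPG, 16 in JDP2, 97 in SLC1A5 and 7 in SLC1A4, and 8 bases after it in SLC7A1 and 38 after it in SLC3A2. In GENCODE v44 the matches of ASNS, CHAC1, SLC1A4, SLC1A5 and SLC7A1 lie in the untranslated part of an exon of some transcript of the gene, that of SLC3A2 in a coding exon of one, and those of CEBPG and JDP2 in none. A match describes the sequence and does not show binding. The 8 genes did not move as a block: with EGF, ASNS, CEBPG, SLC1A5 and SLC7A1 rose, CHAC1, JDP2 and SLC3A2 fell, and SLC1A4 did not pass the test.

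The first question was how the genes responded to each ligand. A gene was called when its adjusted p was under 0.05, by the quasi-likelihood test of edgeR, with p-values adjusted by the Benjamini-Hochberg method for the 15575 genes tested. EGF against PBS called 17 of the 33 higher and 12 lower (all genes tested: 34.9% higher and 38.6% lower). OSM called 12 higher and 12 lower (all genes: 33.5% and 29.8%), and TGFB 5 higher and 9 lower (all genes: 19.9% and 15.8%). By role, with EGF 6 of 6 serine and folate enzymes and 5 of 6 other synthesis enzymes rose, while 4 of 6 transcription factors and 3 of 4 stress regulators fell. With OSM, 4 of 6 transcription factors and 3 of 4 stress regulators fell again, while 3 of 6 serine and folate enzymes and 2 of 6 other enzymes rose. With TGFB, 3 of 6 serine and folate enzymes fell and 1 rose. The genes' median log2 fold change was 0.22 with EGF, 0.05 with OSM and -0.09 with TGFB, beside -0.07, 0.00 and -0.01 over all genes.

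In the pairs, EGF+OSM called 16 higher and 12 lower (all genes: 37.6% and 39.6%), EGF+TGFB 14 and 11 (all genes: 36.2% and 37.5%) and OSM+TGFB 11 and 12 (all genes: 34.2% and 31.8%). All 3 ligands together called 15 higher and 12 lower (all genes: 37.7% and 36.7%). In all 7 treatments EIF4EBP1 was called higher than PBS, and DDIT3, SLC7A5, SLC3A2 and DDIT4 were called lower. Genes with the same call in all 7 were not counted over all genes, so no background share stands beside these. PSAT1 and SLC38A2 went opposite ways with EGF and OSM.

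**Figure D1:**
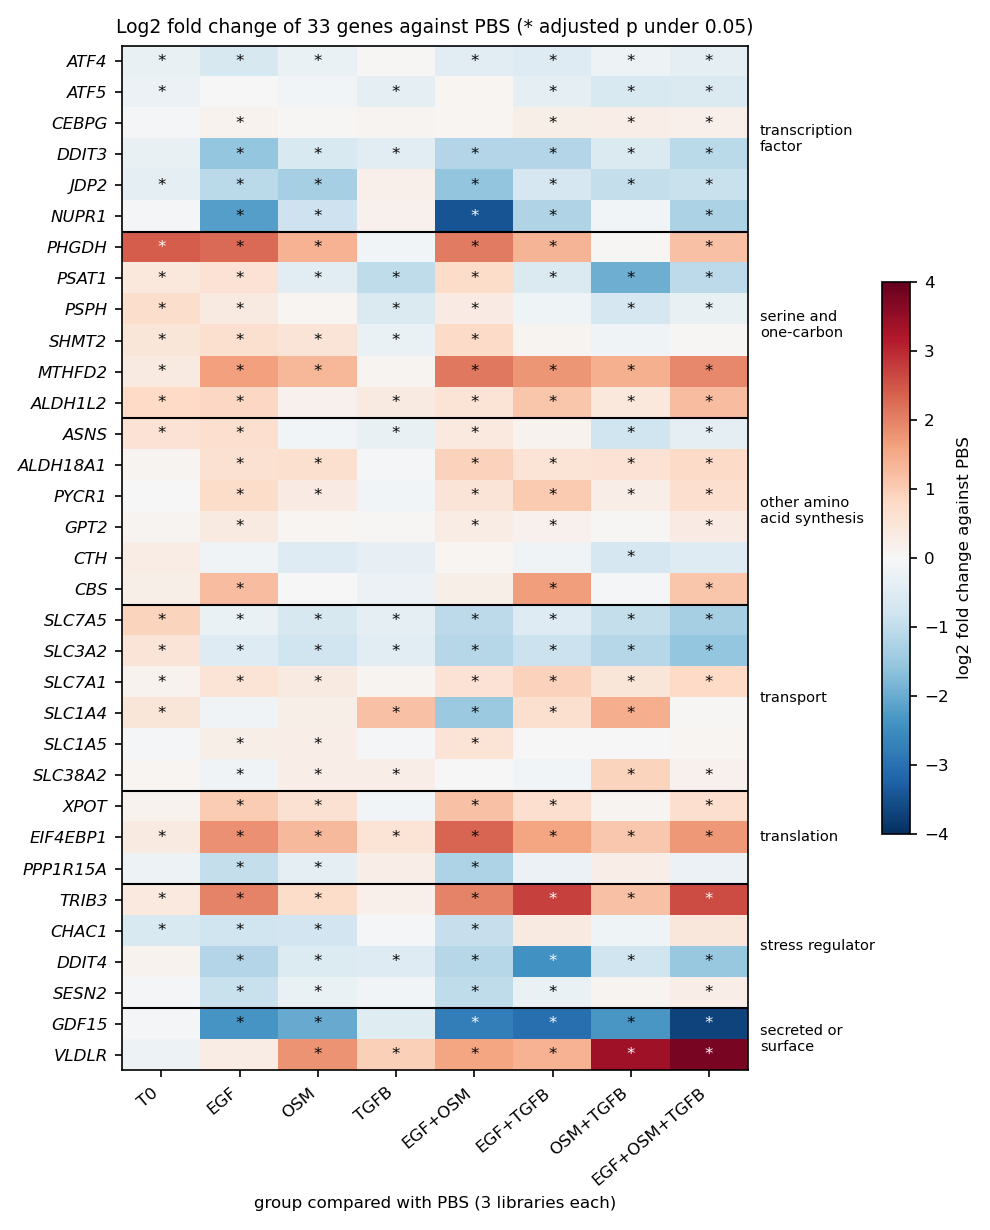
Log2 fold change against PBS of the 33 genes (rows, grouped by role) in T0 and the 7 treatments (columns), where an asterisk marks an adjusted p under 0.05 by edgeR's quasi-likelihood test and each column compares 3 libraries with the 3 PBS libraries. Serine, folate and other synthesis enzymes are mostly higher with EGF, while DDIT3, SLC7A5, SLC3A2 and DDIT4 are lower in all 7 treatments.

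Gene spans below are those of GENCODE v44 on GRCh38. ATF4 (ENSG00000128272, chromosome 22, 39519695 to 39522683, plus strand) stood at 418, 471 and 396 CPM in the 3 PBS libraries, at 275, 277 and 276 CPM with EGF, at 349, 396 and 328 CPM with OSM and at 452, 464 and 423 CPM with TGFB. The EGF libraries lay below all PBS libraries, while the OSM and PBS ranges touched at the edge and the TGFB and PBS ranges overlapped. ATF4 messenger RNA fell with EGF, by a log2 fold change of -0.63 ± 0.06 (standard error, SE; adjusted p 9.25e-10, edgeR), and with OSM (-0.26 ± 0.06; adjusted p 0.000635), and with TGFB its change was 0.06 ± 0.06 (adjusted p 0.498). Over the 9 groups its mean level spanned 1.62-fold, against 1.27-fold for CEBPG and 16.2-fold for VLDLR, the ends of the range over the 33 genes. ATF5, a related leucine-zipper factor, went from 39.2, 40.4 and 35.7 CPM in PBS to 29.4, 28.2 and 29.5 CPM with TGFB (-0.40 ± 0.08; adjusted p 0.000183, edgeR) and did not pass the test with EGF or OSM. It was called lower in each of the 4 groups that received TGFB. CEBPG, a C/EBP partner of ATF4, changed little: its log2 fold changes against PBS lay between 0.05 (OSM) and 0.26 (OSM+TGFB).

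The factors linked with cell stress fell much further. DDIT3 (ENSG00000175197, chromosome 12, 57516588 to 57521737, minus strand), the CHOP protein that promotes cell death under endoplasmic reticulum stress, stood at 8.26, 8.05 and 8.90 CPM in PBS and 3.56, 2.87 and 2.10 CPM with EGF, with no overlap. That is a fall of -1.56 ± 0.15 on the log2 scale, or 2.94-fold (adjusted p 4.53e-10, edgeR). OSM (5.92, 5.70 and 4.89 CPM) and TGFB (6.39, 6.24 and 5.68 CPM) lowered it too, with log2 fold changes of -0.61 ± 0.14 and -0.46 ± 0.14. NUPR1 (ENSG00000176046, chromosome 16, 28532708 to 28539008, minus strand), a small chromatin protein induced by stress, went from 84.4, 88.1 and 81.4 CPM in PBS to 18.2, 20.2 and 17.1 CPM with EGF and 54.3, 53.9 and 33.5 CPM with OSM. With both it reached 7.93, 8.89 and 6.50 CPM, its lowest level, 10.9-fold below PBS (log2 fold change -3.44 ± 0.17; adjusted p 4.59e-14, edgeR). OSM replicate 3 was the lowest OSM library, and without it the fall with OSM was -0.65 in place of -0.84, still called. TGFB alone left NUPR1 at 93.6, 98.3 and 96.1 CPM, above every PBS library, but the difference of 0.18 ± 0.14 did not pass the test (adjusted p 0.351, edgeR). In a fit of these groups alone it was called (0.18, adjusted p 0.00481, edgeR). JDP2, a leucine-zipper repressor, was at 13.7, 13.0 and 13.7 CPM in PBS, 5.96, 6.41 and 7.0 CPM with EGF and 5.52, 5.30 and 5.43 CPM with OSM, falls of -1.06 ± 0.10 and -1.31 ± 0.11, with no overlap in either case.

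**Figure D2:**
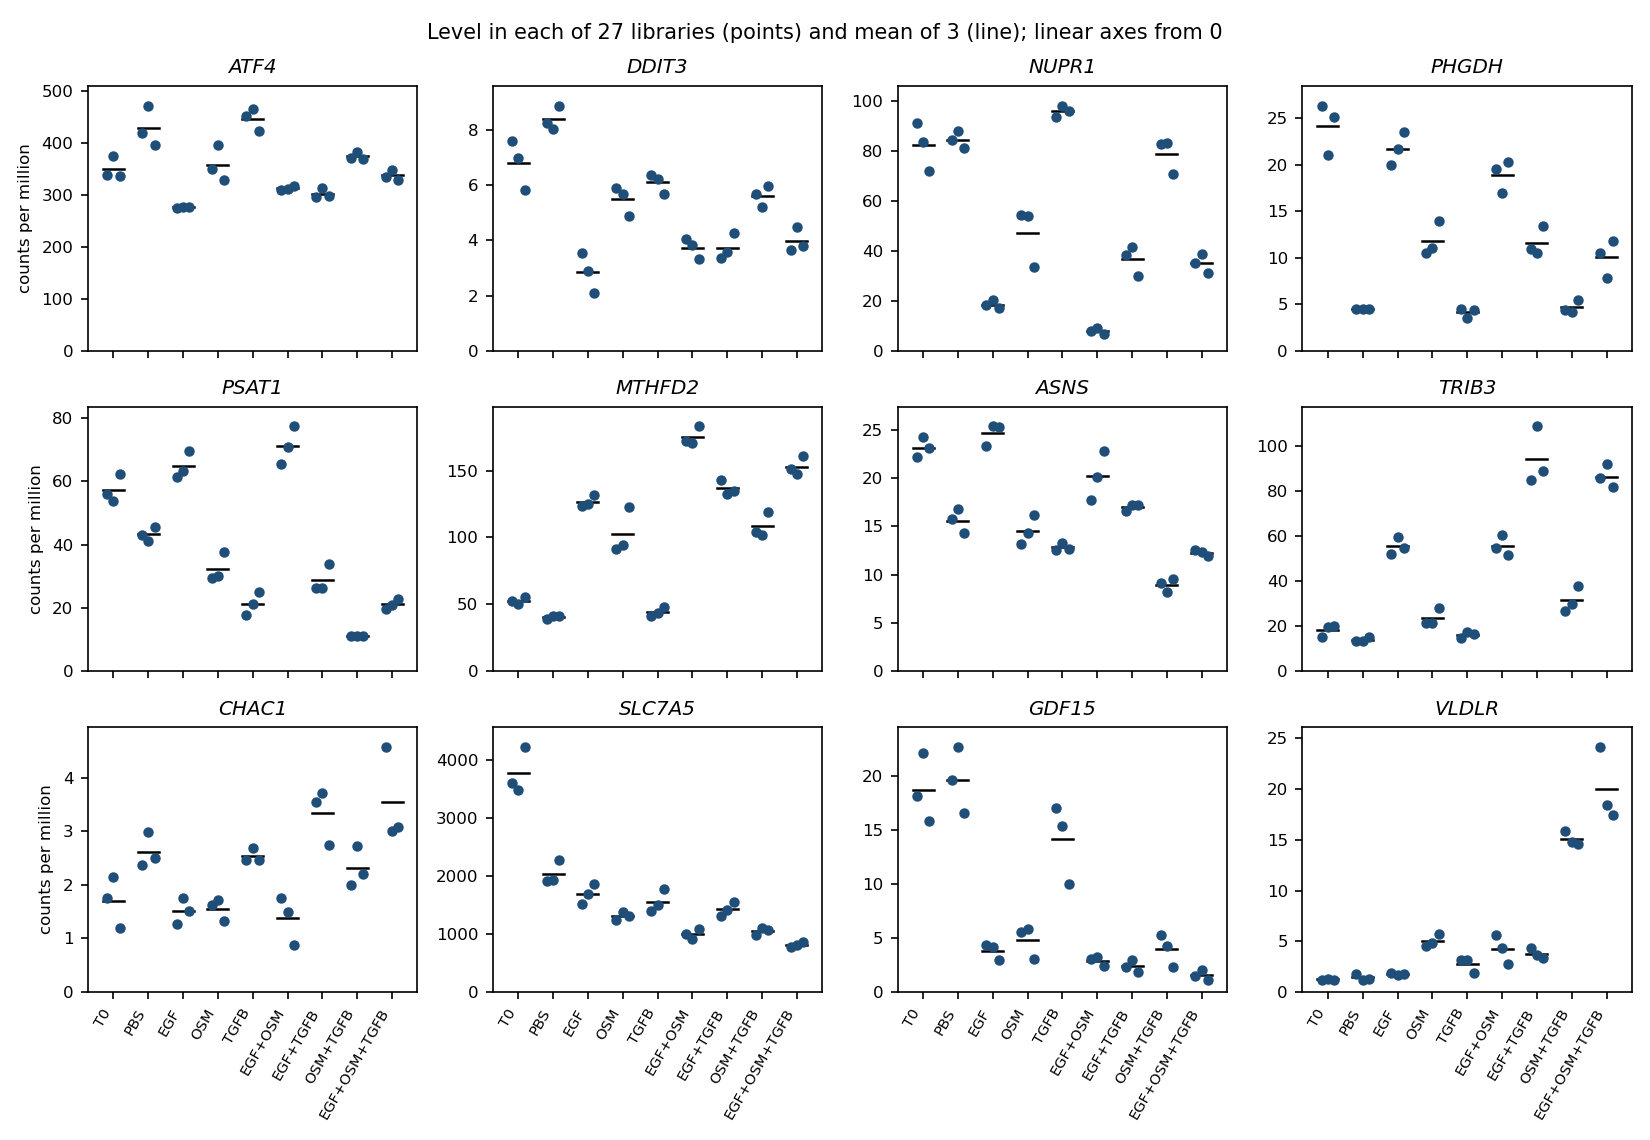
Level in CPM of 12 of the genes in each of the 27 libraries, by group (points are libraries, bars the group mean). ATF4 stays within a narrow range, DDIT3 is below PBS in all 7 treatments, MTHFD2 and TRIB3 are above it with EGF or OSM, and VLDLR is highest with OSM+TGFB and with all 3 ligands.

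Serine synthesis from glycolysis runs through PHGDH, PSAT1 and PSPH, and SHMT2, MTHFD2 and ALDH1L2 carry the carbon of serine through the mitochondrial folate pathway. EGF raised all 6. PHGDH (ENSG00000092621, chromosome 1, 119648411 to 119744218, plus strand), the entry enzyme, stood at 4.43, 4.44 and 4.52 CPM in PBS and 19.9, 21.7 and 23.5 CPM with EGF, a 4.86-fold rise (log2 fold change 2.28 ± 0.14; adjusted p 2.85e-13, edgeR). OSM took it to 10.5, 11.1 and 13.9 CPM, between PBS and EGF with no overlap on either side (1.40 ± 0.15), whereas TGFB left it at 4.51, 3.53 and 4.37 CPM (-0.11 ± 0.16; adjusted p 0.628). MTHFD2 (ENSG00000065911, chromosome 2, 74186172 to 74217565, plus strand) went from 38.7, 41.5 and 41.5 CPM in PBS to 124, 125 and 132 CPM with EGF and 91.0, 94.2 and 122 CPM with OSM. With both ligands it was highest, at 172, 171 and 183 CPM, 4.32-fold over PBS (log2 fold change 2.11 ± 0.08; adjusted p 4.1e-17, edgeR). SHMT2, at 109.7, 122 and 116 CPM in PBS, rose to 166, 185 and 191 CPM with EGF and 154, 167 and 179 CPM with OSM (0.64 ± 0.08 and 0.52 ± 0.08).

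PSAT1, the transaminase of the middle step, separated the ligands. Its libraries held 43.0, 41.0 and 45.5 CPM in PBS, 61.2, 63.3 and 69.5 CPM with EGF, 29.4, 30.1 and 37.7 CPM with OSM and 17.7, 21.3 and 24.9 CPM with TGFB. None of the 3 ligand groups overlapped with PBS. EGF raised PSAT1 (0.58 ± 0.11; adjusted p 3.55e-05, edgeR), while OSM (-0.42 ± 0.11; adjusted p 0.00207) and TGFB (-1.02 ± 0.11; adjusted p 1.15e-07) lowered it. In OSM+TGFB it stood at 11.2, 11.1 and 11.1 CPM, 3.89-fold below PBS and the lowest of the 9 groups. PSPH, the phosphatase of the last step, was at 13.1, 14.4 and 13.1 CPM in PBS and 15.6, 17.7 and 18.7 CPM with EGF (0.35 ± 0.08), did not pass the test with OSM, and fell with TGFB to 8.40, 9.48 and 9.28 CPM (-0.58 ± 0.08; adjusted p 2.9e-06, edgeR). TGFB also lowered SHMT2, to 94.8, 99.4 and 97.9 CPM (-0.25 ± 0.08; adjusted p 0.0146), but this call was lost without PBS replicate 2 (-0.21; adjusted p 0.0711) and without TGFB replicate 1 (-0.23; adjusted p 0.0558). ALDH1L2, at the folate end of the pathway, rose with EGF (0.81 ± 0.12) and with TGFB (0.36 ± 0.12; adjusted p 0.021).

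Among the other synthesis enzymes, ASNS makes asparagine and is the best known ATF4 target of amino acid shortage. It stood at 15.8, 16.7 and 14.3 CPM in PBS, 23.3, 25.4 and 25.3 CPM with EGF, 13.2, 14.3 and 16.2 CPM with OSM and 12.5, 13.2 and 12.7 CPM with TGFB. The EGF libraries lay above PBS (0.66 ± 0.08; adjusted p 6.65e-08, edgeR), the OSM libraries overlapped with PBS (-0.10 ± 0.08; adjusted p 0.311) and the TGFB libraries lay below (-0.28 ± 0.08; adjusted p 0.00933). The TGFB call was lost without PBS replicate 2 (-0.23; adjusted p 0.0628). In OSM+TGFB, ASNS fell to 9.10, 8.22 and 9.53 CPM (-0.80 ± 0.09). ALDH18A1 and PYCR1, which make proline, rose with EGF (0.61 ± 0.06 and 0.74 ± 0.09) and with OSM (0.63 ± 0.06 and 0.32 ± 0.09) and did not pass the test with TGFB. GPT2, which makes alanine in mitochondria, rose with EGF by 0.37 ± 0.06 and was called neither with OSM nor with TGFB. CTH and CBS, which carry sulfur from homocysteine to cysteine, were near 1 CPM, and CBS rose in EGF (2.33-fold), EGF+TGFB (3.20-fold) and with all 3 ligands (2.16-fold). Reads of CBS may be shared with its near-identical copy CBSL, which held a mean of 1.07 counts beside 42.7 for CBS.

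The transporters moved in both directions. SLC7A5 and SLC3A2 form the heterodimer that imports leucine and other large neutral amino acids. SLC7A5 (ENSG00000103257, chromosome 16, 87830023 to 87869507, minus strand) stood at 1922, 1925 and 2278 CPM in PBS, 1525, 1683 and 1864 CPM with EGF, 1245, 1384 and 1304 CPM with OSM and 1395, 1503 and 1781 CPM with TGFB. SLC3A2 stood at 547, 549 and 628 CPM in PBS, 365, 406 and 435 CPM with EGF, 312, 358 and 332 CPM with OSM and 389.9, 413 and 479 CPM with TGFB. Every library of every single ligand lay below every PBS library for both genes. The falls in SLC7A5 were -0.27 ± 0.10 with EGF (adjusted p 0.0144, edgeR), -0.64 ± 0.10 with OSM and -0.39 ± 0.10 with TGFB. The EGF call was lost without PBS replicate 3 (-0.19; adjusted p 0.109) and without EGF replicate 1 (-0.20; adjusted p 0.0887). With all 3 ligands both genes were at their lowest, SLC7A5 at 770.0, 814 and 865 CPM (2.50-fold below PBS) and SLC3A2 at 191, 190.1 and 212 CPM (2.90-fold below).

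Other transporters rose. SLC7A1, the carrier of arginine and lysine, went from 146, 154 and 158 CPM in PBS to 215, 229.5 and 231 CPM with EGF and 189, 195 and 207 CPM with OSM (0.56 ± 0.05 and 0.37 ± 0.05), and was not called with TGFB (0.10 ± 0.05). SLC1A5, a glutamine carrier, went from 226, 223 and 233 CPM to 246, 266 and 282 CPM with EGF and 273, 279 and 271 CPM with OSM (0.22 ± 0.05 and 0.27 ± 0.05). Its relative SLC1A4, a carrier of alanine, serine and cysteine, rose with TGFB alone among the single ligands, from 8.36, 8.52 and 7.77 CPM to 19.2, 17.1 and 18.8 CPM (1.16 ± 0.13; adjusted p 8.93e-08, edgeR), with no overlap. In EGF+OSM it fell to 3.60, 3.17 and 2.15 CPM (-1.47 ± 0.15), although neither EGF (-0.14 ± 0.14; adjusted p 0.364) nor OSM (0.24 ± 0.13; adjusted p 0.125) was called alone. SLC38A2, which takes up small neutral amino acids, fell with EGF (-0.15 ± 0.05), rose with OSM (0.26 ± 0.05) and TGFB (0.27 ± 0.05), and was highest in OSM+TGFB at 1.87-fold over PBS.

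Of the translation genes, EIF4EBP1, which binds and blocks the cap-binding factor eIF4E, stood at 16, 15.7 and 16.2 CPM in PBS, 52.6, 55.5 and 60.8 CPM with EGF, 38.7, 35.2 and 44.8 CPM with OSM and 26.5, 22.6 and 21.0 CPM with TGFB. All 3 ligand groups lay above PBS, by 1.82 ± 0.09 (EGF), 1.31 ± 0.09 (OSM) and 0.55 ± 0.09 (TGFB; adjusted p 2.37e-05, edgeR). XPOT, which exports transfer RNA from the nucleus, rose with EGF (1.03 ± 0.07) and OSM (0.61 ± 0.07) and was not called with TGFB. PPP1R15A encodes GADD34, the phosphatase subunit that reverses eIF2 phosphorylation. It stood at 29.7, 32.1 and 30.8 CPM in PBS, 18.1, 15.7 and 13.8 CPM with EGF, 24.5, 28.3 and 18.3 CPM with OSM and 36.2, 39.3 and 35.2 CPM with TGFB. EGF lowered it (-0.96 ± 0.13; adjusted p 3.33e-07, edgeR). The fall with OSM, -0.38 ± 0.12 (adjusted p 0.0107), rested on OSM replicate 3, without which it was -0.22 (adjusted p 0.0969). The TGFB libraries lay above all PBS libraries, but the difference of 0.26 ± 0.12 did not pass the test (adjusted p 0.107, edgeR). It was called in a fit of these groups alone (adjusted p 0.00281, edgeR) and with the replicate number as a block (adjusted p 0.0334, edgeR).

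Among the stress regulators TRIB3 went against the other 3. TRIB3 (ENSG00000101255, chromosome 20, 362835 to 397559, plus strand), a pseudokinase that restrains ATF4 and DDIT3, rose from 13.6, 13.2 and 15.4 CPM in PBS to 52.2, 59.5 and 54.6 CPM with EGF, 3.94-fold (log2 fold change 1.98 ± 0.14; adjusted p 1.08e-11, edgeR). OSM raised it less, to 21.3, 21.2 and 28.2 CPM (0.74 ± 0.14), and TGFB left it at 14.8, 17.3 and 16.6 CPM (0.21 ± 0.14; adjusted p 0.284). CHAC1, an enzyme that degrades glutathione, stood at 2.38, 2.98 and 2.49 CPM in PBS, 1.27, 1.76 and 1.51 CPM with EGF, 1.62, 1.71 and 1.32 CPM with OSM and 2.45, 2.69 and 2.46 CPM with TGFB. The EGF and OSM libraries lay below PBS (-0.79 ± 0.23 and -0.75 ± 0.23; adjusted p 0.00324 and 0.00618, edgeR), and the TGFB libraries overlapped with it. DDIT4, which encodes the mTORC1 inhibitor REDD1, stood at 539, 592 and 584 CPM in PBS, 247, 261 and 259 CPM with EGF, 401, 435 and 339.8 CPM with OSM and 389, 419.8 and 399.8 CPM with TGFB. It was lowest in EGF+TGFB, at 95.9, 105 and 119 CPM, 5.36-fold below PBS (-2.42 ± 0.10; adjusted p 2.02e-16, edgeR). SESN2, a leucine sensor upstream of mTORC1, was at 37.4, 38.2 and 35.9 CPM in PBS and 20.0, 20.7 and 19.3 CPM with EGF (-0.89 ± 0.08), fell less with OSM (-0.27 ± 0.08) and was not called with TGFB (-0.10 ± 0.08). Its level counts a pair of rows with identical values and so is double that of either row, which leaves its fold changes as they are.

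GDF15 (ENSG00000130513, chromosome 19, 18374731 to 18389176, plus strand), a secreted hormone of cell stress, stood at 19.7, 22.7 and 16.6 CPM in PBS, 4.32, 4.15 and 3.0 CPM with EGF, 5.55, 5.83 and 3.08 CPM with OSM and 17.1, 15.4 and 10.0 CPM with TGFB. EGF and OSM lowered it, with log2 fold changes of -2.36 ± 0.26 and -2.02 ± 0.26 (adjusted p 5.1e-08 and 6.24e-07, edgeR). The TGFB libraries overlapped with PBS, with a log2 fold change of -0.47 that was not called. With the replicate number as a block, GDF15 was called lower with TGFB (-0.49, adjusted p 0.00099, edgeR). With all 3 ligands it was at 1.47, 2.02 and 1.1 CPM, 13.0-fold below PBS. VLDLR (ENSG00000147852, chromosome 9, 2621182 to 2660056, plus strand), a lipoprotein receptor induced by ATF4 under stress, moved the other way. It stood at 1.80, 1.19 and 1.32 CPM in PBS, 1.82, 1.66 and 1.80 CPM with EGF, 4.50, 4.84 and 5.72 CPM with OSM and 3.13, 3.17 and 1.91 CPM with TGFB. OSM (1.81 ± 0.22) and TGFB (0.94 ± 0.23) raised it and EGF was not called (0.30 ± 0.23; adjusted p 0.25, edgeR). In OSM+TGFB it reached 15.9, 14.7 and 14.6 CPM and with all 3 ligands 24.2, 18.5 and 17.4 CPM, 10.5-fold and 14.0-fold over PBS.

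The next comparisons asked what TGFB did when another ligand was already present. Added to EGF, TGFB called 12 of the 33 higher and 13 lower (all genes: 27% and 27.7%). Added to OSM it called 11 higher and 12 lower (all genes: 26.1% and 25.6%), and added to EGF+OSM 12 higher and 16 lower (all genes: 31.6% and 29.5%). In each of these 3 settings 3 of 4 stress regulators rose and DDIT4 fell, while at least 4 of 6 serine and folate enzymes fell. On OSM the calls of 3 stress regulators rested on single libraries. CHAC1 (0.57 ± 0.23) was not called without any 1 OSM library or without OSM+TGFB replicate 2 or 3 (0.41 to 0.65). TRIB3 (0.42 ± 0.13) was not called without OSM replicate 1 or 2 or OSM+TGFB replicate 3 (0.24 to 0.35). DDIT4 (-0.25 ± 0.09) was not called without the same libraries (-0.17 to -0.23). Processing mattered as well. CHAC1 was not called with upper-quartile scaling (0.54) or with no filter on low counts (0.57). TRIB3 was not called in a fit of the OSM and OSM+TGFB groups alone (0.41). PSAT1 fell most among the enzymes, from 65.5, 70.9 and 77.3 CPM in EGF+OSM to 19.6, 20.8 and 22.9 CPM with TGFB added, with effects of -1.18 ± 0.11 (on EGF), -1.54 ± 0.12 (on OSM) and -1.76 ± 0.11 (on both; adjusted p 4.51e-12, edgeR). PHGDH, not called with TGFB alone, fell with effects of -0.91 ± 0.13, -1.35 ± 0.15 and -0.91 ± 0.14 in the same settings. It was at 4.38, 4.11 and 5.43 CPM in OSM+TGFB, a range that overlapped with PBS.

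PSPH, SHMT2 and ASNS fell in all 3 settings as well, with effects between -0.51 and -0.76 when TGFB was added to EGF or to OSM. MTHFD2 was called in 1 of the 3 settings. Its libraries held 143, 132 and 135 CPM in EGF+TGFB and 104, 102 and 119 CPM in OSM+TGFB, and the effect of TGFB was 0.11 ± 0.08 on EGF (95% interval -0.05 to 0.28) and 0.08 ± 0.08 on OSM (interval -0.09 to 0.25). Without OSM replicate 3, the highest OSM library for MTHFD2, the effect on OSM was 0.23 (adjusted p 0.0066, edgeR). On EGF+OSM it was -0.20 ± 0.08 (adjusted p 0.0366), a call lost without EGF+OSM replicate 1 (-0.21) and without EGF+OSM replicate 3 (-0.16). The call was also lost with no filter on low counts (-0.20). ALDH18A1, of proline synthesis, was likewise not called on EGF (-0.07 ± 0.06) or on OSM (-0.05 ± 0.06).

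**Figure D3:**
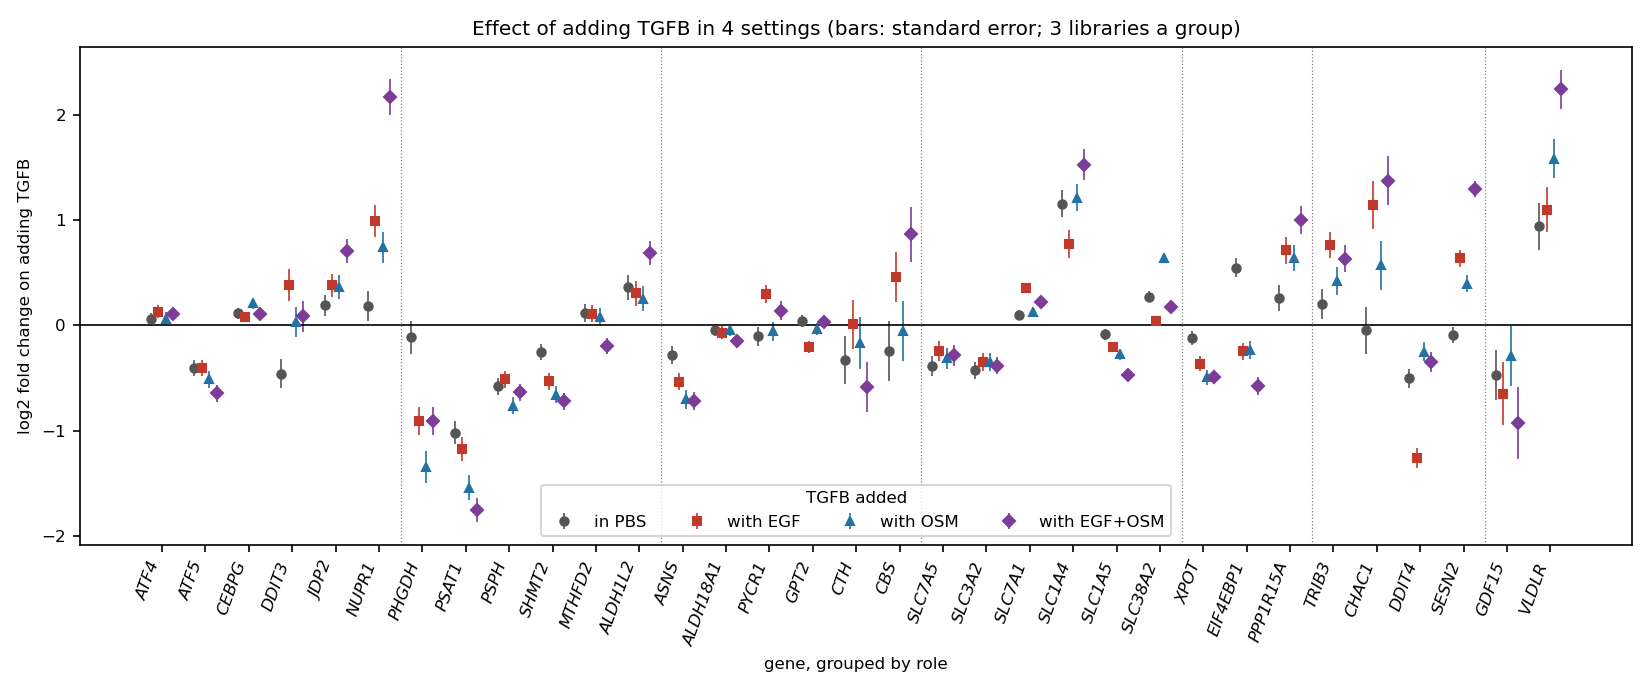
Effect of adding TGFB (log2 fold change, points, with bars of 1 SE) for each of the 33 genes, when TGFB was added to PBS, EGF, OSM or EGF+OSM (3 libraries a group). PSAT1 lies below 0 in all 4 settings, and CHAC1, NUPR1, SESN2 and PPP1R15A lie well above 0 when EGF is present.

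On the stress side, TGFB added to EGF+OSM raised NUPR1 from 7.93, 8.89 and 6.50 CPM to 35, 38.9 and 31.3 CPM, with no overlap (2.17 ± 0.17; adjusted p 4.19e-10, edgeR). SESN2 rose from 18.9, 18.2 and 18.1 CPM to 45.9, 46.8 and 42.6 CPM (1.30 ± 0.08; adjusted p 5.47e-13), its highest level, above every PBS library (0.28 ± 0.08 against PBS). CHAC1 rose from 1.76, 1.49 and 0.885 CPM to 4.57, 3.0 and 3.07 CPM (1.37 ± 0.23; adjusted p 1.25e-05, edgeR). PPP1R15A rose by 1.0 ± 0.13 and JDP2 by 0.71 ± 0.11 in the same comparison. GDF15 went the other way there, from a mean of 2.88 CPM to 1.53 CPM (-0.93), and was called lower. That call was lost with no filter on low counts, without EGF+OSM replicate 1 or 2, and without EGF+OSM+TGFB replicate 3. TRIB3, already raised by EGF, rose further when TGFB was added, to 85.0, 109 and 89.0 CPM (0.77 ± 0.12; adjusted p 1.7e-05, edgeR). DDIT3 was not called on EGF+OSM (0.08 ± 0.15; adjusted p 0.654). ATF4 itself was called in none of the 3 settings in the main fit. Its effects were 0.13 ± 0.06 on EGF (adjusted p 0.0809, edgeR, and 0.0376 in a fit of these groups alone), 0.06 ± 0.06 on OSM and 0.11 ± 0.06 on EGF+OSM. With the replicate number as a block, ATF4 was called on EGF (adjusted p 0.0194, edgeR) and on EGF+OSM (adjusted p 0.0381, edgeR).

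EGF and OSM were then compared with each other. Of the 33 genes, 9 were higher with OSM than with EGF and 15 were lower (all genes: 28.0% and 28.8%). Of the 12 enzymes, 9 were lower with OSM, PSAT1 (-1.0 ± 0.11), PHGDH (-0.88 ± 0.13) and ASNS (-0.76 ± 0.08; adjusted p 1.95e-08, edgeR) among them. DDIT3 (0.95 ± 0.15), NUPR1 (1.35 ± 0.15), SESN2 (0.62 ± 0.08) and DDIT4 (0.62 ± 0.09) were higher with OSM, and TRIB3 was lower (-1.24 ± 0.13). ATF4 was higher by 0.37 ± 0.06 (adjusted p 1.09e-05, edgeR). Without OSM replicate 3 the number of genes called was 24, as it was with that library.

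OSM added to EGF changed 15 of the 33 (all genes: 34.9%), and EGF added to OSM changed 28 (all genes: 61.7%). Adding OSM to EGF left PHGDH (-0.20 ± 0.13), PSAT1 (0.14 ± 0.11), PSPH (-0.01 ± 0.08) and TRIB3 (0.00 ± 0.12) without a call. It raised MTHFD2 by 0.47 ± 0.08 and EIF4EBP1 by 0.50 ± 0.08, and lowered NUPR1 (-1.25 ± 0.17) and SLC7A5 (-0.77 ± 0.10; adjusted p 1.06e-06, edgeR). EGF added to OSM raised PSAT1 by 1.14 ± 0.11, PHGDH by 0.68 ± 0.13 and TRIB3 by 1.24 ± 0.13, and lowered NUPR1 (-2.60 ± 0.17). Without OSM replicate 3, EGF added to OSM changed 26 of the 33.

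The study asked whether responses to combined ligands are non-additive. The departure of a combination is its log2 fold change against PBS minus the sum of those of its single ligands, and 0 means that the log2 fold changes add. EGF+OSM departed in 18 of the 33 genes (all genes: 38.7%), EGF+TGFB in 12 (all genes: 29.8%), OSM+TGFB in 8 (all genes: 23.3%) and the 3 ligands together in 17 (all genes: 48.0%). In OSM+TGFB and with the 3 ligands these shares of the 33 genes and of all genes were nearly the same. They were 24.2% and 23.3% in OSM+TGFB, and 51.5% and 48.0% with the 3 ligands. Without OSM replicate 3 the counts were 18 for EGF+OSM, 6 for OSM+TGFB and 17 for the 3 ligands.

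PHGDH had the most negative departures: -1.60 ± 0.19 in EGF+OSM, -1.24 ± 0.22 in OSM+TGFB and -2.40 ± 0.30 with the 3 ligands (adjusted p 3.43e-07, edgeR). EGF and OSM each raised it, and together they gave 19.5, 16.9 and 20.3 CPM, a range that overlapped with EGF alone. EIF4EBP1 departed by -1.94 ± 0.18 with the 3 ligands and MTHFD2 by -1.18 ± 0.17. The 8 positive departures included those of CHAC1 (2.03 ± 0.45; adjusted p 0.000481, edgeR), NUPR1 (1.58 ± 0.29), SESN2 (1.54 ± 0.15), DDIT3 (1.54 ± 0.28) and JDP2 (1.30 ± 0.21), each of which EGF and OSM had lowered. For SLC1A4 in EGF+OSM, where neither ligand was called alone, the departure was -1.57 ± 0.20 (adjusted p 6.52e-07). A departure and the single responses share the PBS and single-ligand libraries, so their signs are not independent. SLC7A5 and SLC3A2 departed past the threshold in no combination. With the 3 ligands their departures were -0.02 ± 0.19 (95% interval -0.42 to 0.38) and 0.19 ± 0.17 (interval -0.15 to 0.53).

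**Figure D4:**
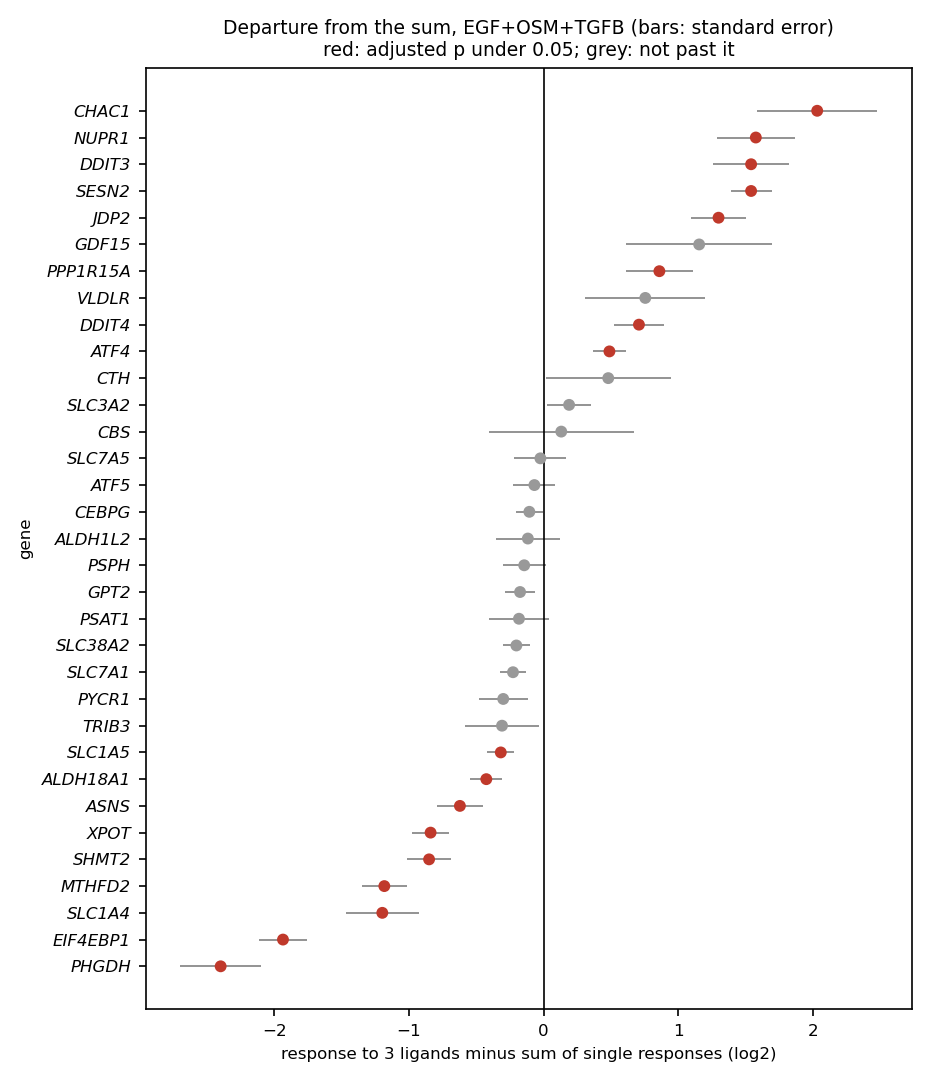
Departure of the 3-ligand response from the sum of the single responses (log2 scale, with bars of 1 SE) for the 33 genes, red where the adjusted p was under 0.05. PHGDH and EIF4EBP1 lie furthest below 0, and CHAC1, NUPR1, SESN2 and DDIT3 furthest above.

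PBS against T0 showed how the genes changed over 24 h with no ligand added. Of the 33 genes 4 were higher in PBS and 13 lower (all genes: 16.2% and 18.9%), and all 6 serine and folate enzymes fell. PHGDH fell most, from 26.3, 21.0 and 25.1 CPM in T0 to 4.43, 4.44 and 4.52 CPM in PBS (-2.43 ± 0.14; adjusted p 5.76e-12, edgeR), so that its EGF level overlapped with T0. SLC7A5 fell from 3606, 3479 and 4231 CPM to 1922, 1925 and 2278 CPM (-0.89 ± 0.10), and T0 had the highest mean of the 9 groups for SLC7A5, SLC3A2, PHGDH, PSPH, CTH and DDIT4. ASNS (-0.57 ± 0.08), PSPH (-0.71 ± 0.08), PSAT1 (-0.41 ± 0.11) and SHMT2 (-0.47 ± 0.08) fell too. ATF4 rose by 0.29 ± 0.06 (adjusted p 0.00052, edgeR) and JDP2 by 0.35 ± 0.10, while DDIT3 (0.30 ± 0.14), NUPR1 (0.04 ± 0.14) and GDF15 (0.07 ± 0.24) were not called.

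Other genes of the pathway were counted by role, from lists compiled from general knowledge, and each count is read against the shares of all genes called higher and lower, which were 34.9% and 38.6% with EGF, 33.5% and 29.8% with OSM, 19.9% and 15.8% with TGFB, and 27% and 27.7% when TGFB was added to EGF. The medians over all genes were -0.07, 0.00, -0.01 and -0.01 in the same order. Of 20 cytosolic tRNA synthetases, which charge transfer RNA with amino acids, 16 rose and 2 fell with EGF (median log2 fold change 0.64), 16 rose and 3 fell with OSM (median 0.33) and 4 rose and 7 fell with TGFB (median -0.03). FARSB rose most with EGF (1.24 ± 0.09) and QARS1 fell most (-0.61 ± 0.04). A list of 16 genes held eIF2, its kinases and its exchange factor eIF2B, and also the regulators GCN1, IMPACT, PPP1R15B and DNAJC3. Of these 16, 9 rose with EGF (median 0.21), led by EIF2B3 (1.03 ± 0.10). With OSM 8 rose and 1 fell (median 0.14), and with TGFB 1 rose and 4 fell (median -0.04). Of 14 other folate-cycle genes, 10 rose and 2 fell with EGF (median 0.84), and adding TGFB to EGF lowered 11 and raised 1 (median -0.53). TYMS, the thymidylate synthase, rose most with EGF (3.54 ± 0.19).

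The chaperones of the endoplasmic reticulum are controlled by the ATF6 and XBP1 branches of the unfolded protein response. A list of 18 genes of these branches held chaperones and also ATF6, XBP1, ERN1, SEL1L, SYVN1, EDEM1 and HERPUD1. Of these 18, 12 rose and 6 fell with EGF (median 0.75) and 13 rose and 1 fell with OSM (median 0.64). With TGFB 14 rose and 2 fell (median 0.32). These counts stand beside the same shares of all genes. With EGF, SDF2L1 rose most (1.68 ± 0.14) and DNAJB9 fell most (-0.78 ± 0.10). TGFB added to EGF raised 17 of the 18 (median 0.52). Of 15 other reported ATF4 targets that were tested, 5 rose and 6 fell with EGF (median -0.05), which is near the shares of all genes, 34.9% and 38.6%. STC2 rose most among them (1.29 ± 0.11) and KLHL24 fell most (-2.79 ± 0.19), and FGF21 and INHBE did not pass the filter on low counts. A list of 19 genes held amino acid sensors and regulators upstream of mTORC1, and also MTOR, RPTOR, DEPTOR and RHEB. Of these 19, 5 rose and 11 fell with EGF (median -0.77), beside 34.9% and 38.6% of all genes. CASTOR1, the arginine sensor, was lowest (-2.91 ± 0.19) and NPRL3 highest (0.44 ± 0.07).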

How the data were processed

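The deposited table holds whole numbers per gene and library, taken here as rounded estimated counts, since kallisto 0.46.2 and GRCh38.p5 stand in the submitters' processing notes with Trim Galore 0.4.3 and cutadapt 1.10. How the authors rounded, summed transcripts to genes and set the strand is not given in the sources used here, so genes that overlap on opposite strands may share counts. Per the labels' protocols, libraries came from a stranded poly(A) kit.

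Rows of the same symbol were summed, and 7165 rows without a symbol (0.324% of counts) were kept under their gene identifiers. Genes were filtered with filterByExpr. edgeR 4.0.16 (R 4.3.3, limma 3.58.1) fitted all 27 libraries with 1 term per group and TMM scaling, leaving 18 residual degrees of freedom, with a biological coefficient of variation of 7.83%. Levels are CPM of the TMM-scaled library sizes. Errors are standard errors of log2 fold changes, and 95% intervals are given where named. Alternatives were DESeq2 1.42.0, RLE size factors, upper-quartile scaling, no filter, rows as deposited, each contrast's groups alone, a replicate block and leaving out each library.

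The 33 genes and the other lists were chosen with earlier results of these data known. Genes described in detail were 21 set by role, and EIF4EBP1, JDP2 and SLC1A4 for being among the 3 highest or lowest single-ligand changes or the 3 largest departures. From each other list, the highest and lowest changes were named, except 1 that is not reported here.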

Additional observations from a re-analysis of the deposited data

Results flagged for a closer look

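In 6 cases a ligand moved a gene one way alone and the opposite way when added to another ligand. In each, the difference (the departure) was past the threshold in edgeR's quasi-likelihood test. The cases were sought only among the listed ATF4 targets and partners. Over all genes, 38.7% departed in EGF+OSM, 29.8% in EGF+TGFB and 23.3% in OSM+TGFB. Opposite moves were not counted over all genes, so whether 6 cases differ from the background was not tested. ATF4 fell with OSM alone (-0.26 ± 0.06) and rose when OSM was added to EGF (0.18 ± 0.06), a difference of 0.44 ± 0.09 (adjusted p 0.000239, edgeR). The rise was lost when any EGF library, or EGF+OSM replicate 2 or 3, was left out, where it was 0.17 to 0.18.

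DDIT3, the CHOP factor, fell with OSM alone (-0.61 ± 0.14) and rose when OSM was added to EGF (0.39 ± 0.15), a difference of 1.0 ± 0.21. It likewise fell with TGFB alone (-0.46 ± 0.14) and rose on EGF (0.38 ± 0.15), a difference of 0.84 ± 0.21 (adjusted p 0.00289, edgeR). Both rises were lost without EGF replicate 3, the lowest EGF library, where they were 0.22 and 0.21. Both were also lost without EGF replicate 2, the first without EGF+OSM replicate 1 or 2 and the second without EGF+TGFB replicate 2 or 3. Upper-quartile scaling lost both (0.37 and 0.35), as did a fit of each contrast's groups alone (0.36 and 0.39). The first was lost as well with no filter on low counts and with rows as deposited (0.39 in each).

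EIF4EBP1, the inhibitor of eIF4E, rose with TGFB alone (0.55 ± 0.09) and fell when TGFB was added to EGF (-0.25 ± 0.08) or to OSM (-0.23 ± 0.09), differences of -0.80 ± 0.12 and -0.78 ± 0.12. The fall on EGF was -0.19 without EGF replicate 3 and the fall on OSM -0.13 without OSM replicate 3, neither called. The first was also lost without EGF+TGFB replicate 1 or 2, and the second without OSM+TGFB replicate 2. A fit of the OSM and OSM+TGFB groups alone lost the second too (-0.24). SESN2, the leucine sensor, fell with OSM alone (-0.27 ± 0.08) and rose when OSM was added to TGFB (0.22 ± 0.08), a difference of 0.49 ± 0.11 (adjusted p 0.00171, edgeR). That rise was 0.16 and not called with upper-quartile scaling, and 0.19 to 0.20 and not called without TGFB replicate 1 or 3 or OSM+TGFB replicate 1 or 2. Each ligand's effect alone and the differences share the PBS libraries, and the causes were not tested.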

How the results depend on the processing

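No called change of the 24 genes described in detail changed sign under the alternatives run, while some values near 0 that were not called did. The number of the 33 genes called stayed within 1.5 times its main value in all 287 combinations of comparison and alternative, and the number of all genes called did too. The ranges were 12 to 20 genes for EGF+OSM against EGF, 9 to 17 for the EGF+TGFB departure, 11 to 18 for TGFB against PBS and 6 to 12 for the OSM+TGFB departure, among others. Of the tests of the 24 genes described in detail, 6640 stayed on their side of the threshold, 144 lost a call and 104 gained one. With upper-quartile scaling the split of the 33 genes was 13 higher and 14 lower in EGF+TGFB and with the 3 ligands, and 10 and 13 in OSM+TGFB. With each contrast's groups alone, the share of called genes with a positive EGF+TGFB departure was 33.5% in place of 44.7% over all genes, and 8 higher and 9 lower in place of 7 and 5 among the 33. Replicate numbers are shared by the groups, but same-numbered libraries deviated together only weakly, with mean correlations of 0.05 to 0.08 and a lowest of -0.0265, although 26 of 27 libraries correlated best with their own number. With the number as a replicate block, 29 of the 33 genes were called for EGF, 25 for OSM and 18 for TGFB, in place of 29, 24 and 14. The block also called ATF4 when TGFB was added to EGF (0.13; adjusted p 0.0194, edgeR) or to EGF+OSM (0.11; adjusted p 0.0381), and PPP1R15A with TGFB alone (0.26; adjusted p 0.0334). GDF15 was called lower with the block too, with TGFB alone (-0.49, adjusted p 0.00099, edgeR) and when TGFB was added to EGF (-0.67, adjusted p 0.000443, edgeR). CTH, CBS and CHAC1 had the fewest counts of the 33 genes.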
